A study of Mus musculus with 7 samples.

Results

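The endothelin system was followed through its 7 genes, the ligands *Edn1*, *Edn2* and *Edn3*, the receptors *Ednra* and *Ednrb* and the converting enzymes *Ece1* and *Ece2*. These genes were chosen by name from 52230 annotated genes with values, and all 7 were among the 19233 genes with enough reads to be tested. The tissue was mouse ovarian stroma, the residual ovary left after granulosa cells (GCs) had been released by puncture. Females of the PRKO strain (Pgrtm1Bwo), 21 to 27 days old, received 5 IU of equine chorionic gonadotropin (labelled PMSG) and, 44 h later, 5 IU of human chorionic gonadotropin (hCG), and ovaries were taken 8 h post-hCG. WT libraries came from PGR +/+ females (n = 4, replicates 1 to 4) and KO libraries from females with both copies of the progesterone receptor gene disrupted (n = 3, replicates 2 to 4). Both groups received the same hormones, so neither was an unstimulated ovary. Each library pooled tissue from 3 mice, the deletion was present in every cell of the KO females, and the comparison asks which stromal transcripts differ before ovulation when the progesterone receptor is absent.

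Endothelins are made as long precursors that furin-type proteases and then endothelin-converting enzymes trim to short, disulphide-bonded peptides. The peptides act on G protein-coupled receptors. The type A receptor, encoded by *Ednra*, sits mainly on smooth muscle and mural cells and drives contraction, while the type B receptor, encoded by *Ednrb*, is also found on endothelium, where it releases nitric oxide and clears the peptide. In the rodent ovary *Edn2* is known for a brief peak of expression in granulosa cells of follicles about to rupture, and contraction of the muscle layer of the follicle wall is part of ovulation.

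The stretch of each ligand gene that encodes the mature peptide is shown because it gives the product of the 3 ligand genes that the receptors bind. All lie within exon 2 on the plus strand of GRCm39, at chr13:42457125-42457187 for *Edn1*, chr4:120019148-120019210 for *Edn2* and chr2:174603542-174603604 for *Edn3*, and run for 63 bases or 21 codons. Capitals mark the 4 cysteine codons that form the disulphide bonds.
Edn1: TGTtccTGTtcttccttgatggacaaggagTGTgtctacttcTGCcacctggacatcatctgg
Edn2: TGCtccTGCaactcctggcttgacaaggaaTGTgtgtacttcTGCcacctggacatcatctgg
Edn3: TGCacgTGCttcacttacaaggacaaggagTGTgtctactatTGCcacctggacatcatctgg
*Edn1* and *Edn2* were identical at 53 of the 63 bases (84.1%) and 14 of the 21 codons. *Edn1* and *Edn3* shared 50 bases (79.4%), and *Edn2* and *Edn3* shared 48 (76.2%), the least alike pair. The coding parts of the transcripts held 202 codons in *Edn1*, 175 in *Edn2* and 214 in *Edn3* without the stop codon.

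Between 47372446 and 63416875 reads per library were assigned to transcripts. *Pgr*, the targeted gene, was measured at 16.8 to 31.0 CPM (reads as a rate per library, scaled by the TMM method) in the 4 WT libraries and at 6.13 to 7.56 CPM in the 3 KO libraries, with no overlap, and its KO mean was 30.3% of the WT mean (log2 fold change -1.72, SE 0.202, adjusted p = 0.0544 by the quasi-likelihood test of edgeR). The edgeR test thus did not call even the targeted gene at an adjusted p of 0.05, whereas DESeq2 gave it an adjusted p of 3.67e-15. Granulosa cell markers were still read, with a summed level of 2370 to 3302 TPM (a rate corrected for transcript length) over 10 genes in WT and 2952 to 3953 TPM in KO, so granulosa cell transcripts remained in the depleted tissue. Smooth muscle markers differed between the groups and are given beside the receptors. In such bulk tissue, fewer cells of a type and less RNA per cell cannot be told apart.

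None of the 7 endothelin genes passed the threshold for a differentially expressed gene (DEG; adjusted p up to 0.05 and a log2 fold change of 0.5 or more in size). The edgeR test called 2 of 19233 genes, 0.0104% of those tested. DESeq2, run here as an alternative, called 141 genes, 0.835% of its tested genes, again with 0 of the 7. The study that made these libraries used DESeq2 at this threshold and reported *Edn2* among its stromal DEGs, lower in KO. At an unadjusted p under 0.05 by edgeR, 3 of the 7 were counted here, *Edn2* and *Ednrb* lower in KO and *Edn1* higher, against 8.94% of all genes tested. *Ednrb* was the member whose KO libraries all lay on one side of the WT libraries in CPM, as did those of 9.05% of all genes in either direction and 5.12% in the direction of *Ednrb*. WT replicate 1 was low for *Edn2*. Without it the KO and remaining WT libraries separated in CPM for 3 members (*Edn1*, *Edn2* and *Ednrb*) and for 13.3% of all genes.

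**Figure D1:**
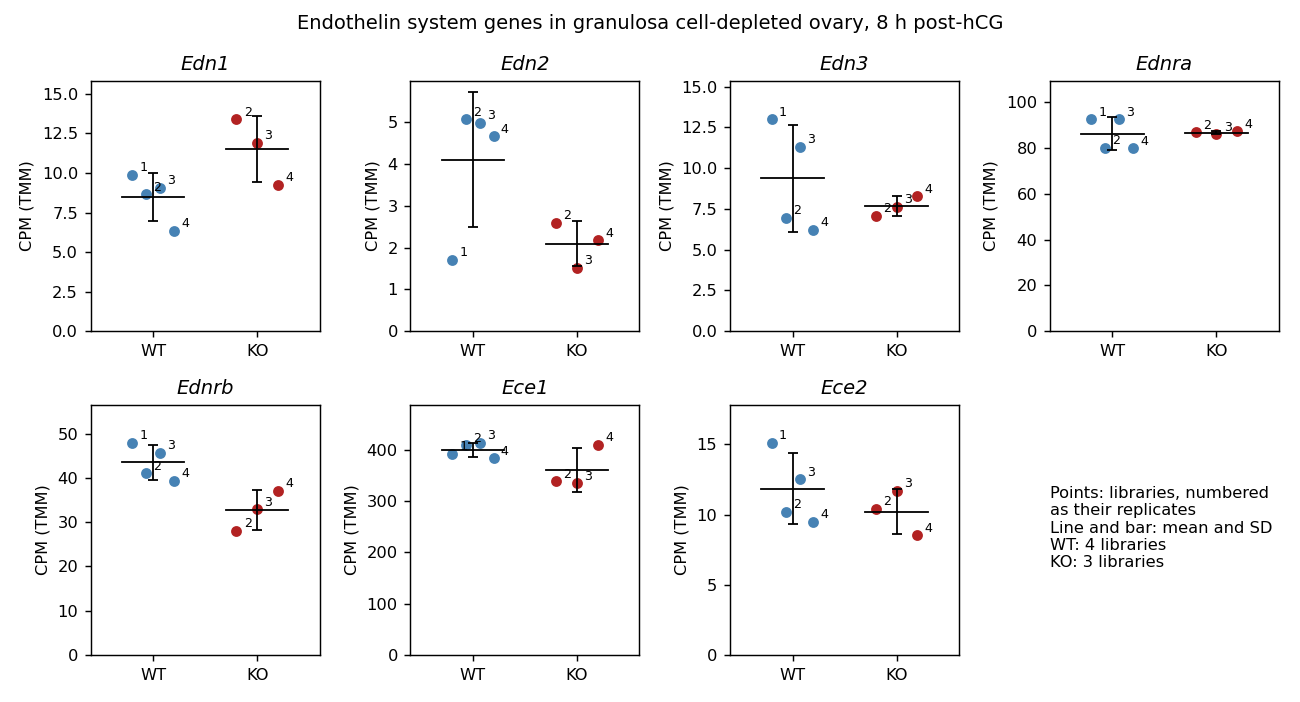
Level of each endothelin gene in CPM (TMM-scaled, linear axis from 0) in the 4 WT and 3 KO libraries, with points numbered by replicate and lines and bars for mean and SD. *Edn2* in WT replicate 1 (1.71 CPM) lies among the KO libraries (1.52 to 2.59 CPM), and *Ednrb* is lower in all 3 KO libraries (28.0 to 37.1 CPM) than in any WT library (39.4 to 47.9 CPM).

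Among the ligands, *Edn2* had the largest log2 fold change in size. The gene (ENSMUSG00000028635) lies at chr4:120018403-120024557 on the plus strand of GRCm39 and had 1 annotated transcript in the files. Its level was 1.71, 5.07, 4.98 and 4.66 CPM in the WT libraries, taken in the order of replicates 1 to 4, and 2.59, 1.52 and 2.17 CPM in the KO libraries, in the order of replicates 2 to 4, as in every such series of values here. The KO libraries and WT replicate 1 were low, whereas the other 3 WT libraries stood close together above them, so the groups overlapped through a single library. The counts behind these levels were small, from 73 to 290 reads per library, with 89 in WT replicate 1. The KO mean of 2.09 ± 0.538 CPM (SD, n = 3) was 51.0% of the WT mean of 4.11 ± 1.61 CPM (SD, n = 4), a log2 fold change of -0.97 (SE 0.359, 95% interval -1.78 to -0.15) with an unadjusted p of 0.0249 and an adjusted p of 0.47 by edgeR.

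The calls for *Edn2* differed between fits. WT replicate 1 was known to be its low library before it was left out, so the fits without it are values that depend on that choice and not independent evidence. Without that library the fitted log2 fold change was -1.21 (SE 0.192), with an adjusted p of 0.112 by edgeR, which is not a DEG. DESeq2 on the same 6 libraries gave -1.22 (SE 0.207) and an adjusted p of 1.87e-06, one of 206 DEGs (1.19% of its tested genes), a fit added after the values were seen. DESeq2 on all 7 libraries gave an adjusted p of 0.139. Over the 16 alternatives the adjusted p of *Edn2* ran from 1.87e-06 to 0.833 and the log2 fold change from -1.26 to -0.78. In WT replicate 1 the summed granulosa marker level was 3302 TPM, against 2370 to 3252 TPM in the other WT libraries. *Inha* alone gave 2317 TPM of that sum. In CPM, WT replicate 1 was the highest WT library for *Cyp19a1*, *Inha*, *Inhba*, *Hsd17b1*, *Serpine2* and *Grem1*, and not for *Fshr*, *Amh*, *Foxl2* and *Nr5a2*. *Inhba* was at 610 CPM there, against 208 to 422 CPM in the others, and *Amh* at 83.4 CPM, against 53.0 to 115 CPM. The sum of WT replicate 1 over 10 markers of ovulatory granulosa and cumulus cells was 443 TPM, against 428 to 521 TPM in the others. The sum over 7 surface epithelium markers was 29.6 TPM in that library and 30 to 54.5 TPM in the other WT libraries. The part of these cell types in the *Edn2* level of WT replicate 1 was not tested.

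**Figure D2:**
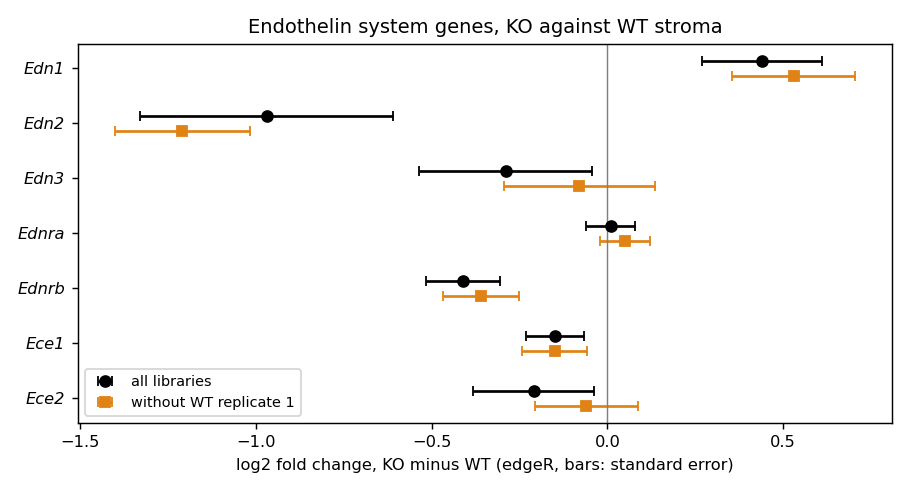
Log2 fold change of KO minus WT for each endothelin gene by edgeR, with all 7 libraries (black) and without WT replicate 1 (orange), with standard errors as bars. Leaving out that library moves *Edn2* from -0.97 to -1.21, with a narrower error, and *Edn3* from -0.29 to -0.08.

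*Edn1*, the gene of the main vasoconstrictor ligand of blood vessels, leaned the opposite way. It lies at chr13:42446301-42461466 on the plus strand (ENSMUSG00000021367). WT libraries held 9.88, 8.66, 9.06 and 6.33 CPM and KO libraries held 13.4, 11.9 and 9.26 CPM. KO replicates 2 and 3 were above all WT libraries, and KO replicate 4 lay within the WT range, below WT replicate 1. Mean levels were 8.48 ± 1.52 CPM in WT and 11.5 ± 2.1 CPM in KO, a log2 fold change of 0.44 (SE 0.17, 95% interval 0.06 to 0.83, adjusted p = 0.487 by edgeR; 0.263 by DESeq2).

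*Edn3*, the ligand best known from neural crest development, at chr2:174602088-174625835 on the plus strand, was variable among WT libraries. Its level was 13.0, 6.97, 11.3 and 6.22 CPM in WT, against 7.07, 7.63 and 8.28 CPM in KO. WT replicates 1 and 3 were high and WT replicates 2 and 4 were below the KO libraries, so all 3 KO libraries fell inside the WT range. The log2 fold change was -0.29 (SE 0.247, 95% interval -0.85 to 0.27, adjusted p = 0.779 by edgeR), and it was -0.08 without WT replicate 1, the highest library.

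Summed over the 3 ligands, the level per transcript length was 15.9 ± 2.19 TPM in WT and 15.3 ± 1.01 TPM in KO. *Edn1* supplied 46.2%, 40.9%, 37.4% and 35.9% of the ligand TPM in WT and 60.8%, 61.6% and 50.6% in KO, so every KO library was above every WT library. The *Edn1* share was not tested, and it depends on the other ligands. The CPM of *Edn1* overlapped between the groups, whereas its TPM did not. *Edn2* supplied 12.3%, 36.7%, 31.6% and 40.4% in WT and 18%, 12.1% and 18.2% in KO, with WT replicate 1 again among the KO values. The mean *Edn2* share was lower in KO by 14.2 percentage points (30.3% ± 12.5 in WT, 16.1% ± 3.47 in KO), with overlap through WT replicate 1 (p = 0.171, exact permutation test, 2-sided). With these libraries the smallest p that this 2-sided test allows is 0.0571. The *Edn3* share was 29.6% ± 8.75 in WT and 26.2% ± 4.92 in KO, with overlap.

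**Figure D3:**
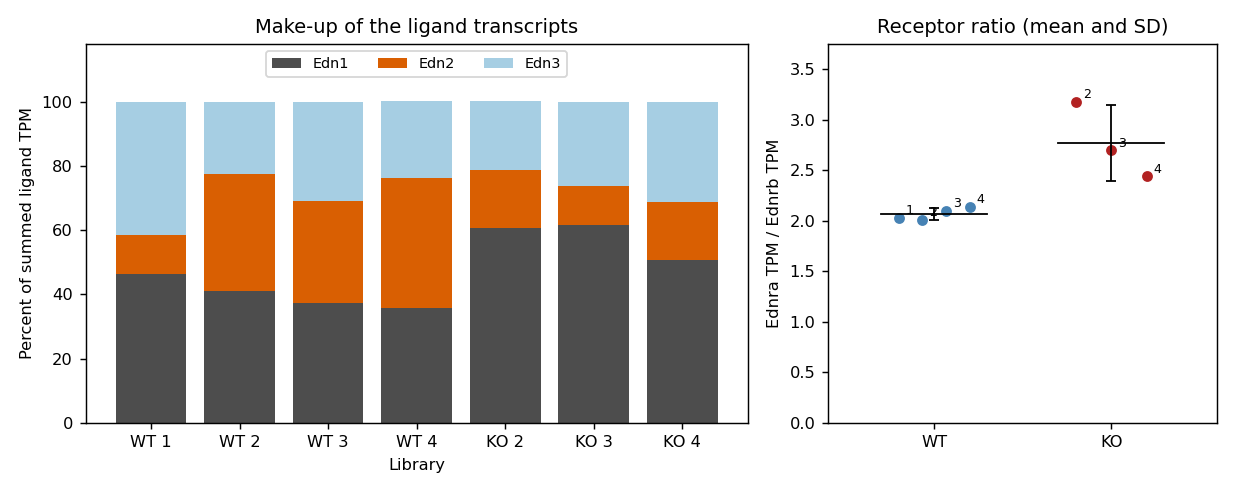
Left, percent of the summed ligand TPM from each ligand gene in each library (stacked bars from 0); right, the ratio of *Ednra* to *Ednrb* TPM with points numbered by replicate and mean and SD. *Edn1* makes up 35.9% to 46.2% of the sum in WT and 50.6% to 61.6% in KO, and the receptor ratio is 2.01 to 2.14 in WT and 2.44 to 3.18 in KO.

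The receptors gave different values. *Ednra*, at chr8:78386590-78451552 on the minus strand, had 92.5, 80, 92.6 and 79.9 CPM in WT, against 86.8, 86.0 and 87.3 CPM in KO. All KO libraries lay between the lower and the higher WT pair. Its log2 fold change was 0.01 (SE 0.0699, adjusted p = 0.987 by edgeR), and the 95% interval of -0.15 to 0.17 bounds the difference that these libraries leave possible. An antisense RNA, *4933431K23Rik*, spans the gene, with 57 to 193 reads per library, and reads of such a pair are told apart only where counting uses strand, which is not stated.

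*Ednrb* (ENSMUSG00000022122), at chr14:104052053-104081900 on the minus strand, was measured at 47.9, 41.0, 45.7 and 39.4 CPM in WT replicates 1 to 4. In KO replicates 2 to 4 it was at 28.0, 32.9 and 37.1 CPM, each below the lowest WT library. The KO mean, 32.7 ± 4.55 CPM, was 75.1% of the WT mean, 43.5 ± 3.95 CPM. The log2 fold change was -0.41 (SE 0.105, 95% interval -0.65 to -0.17), with an unadjusted p of 0.00359 and an adjusted p of 0.313 by edgeR. DESeq2 gave an adjusted p of 0.0429 for the same fold change, past the adjusted threshold but under the fold threshold of a DEG, and the adjusted p ran from 0.0429 to 0.786 over the 16 alternatives. On the TPM scale the groups touched, since KO replicate 4 (16.5 TPM) was just above WT replicate 4 (16.3 TPM).

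*Ednra* made up 67.0%, 66.7%, 67.7% and 68.1% of the receptor TPM in WT and 76.1%, 73.0% and 71.0% in KO. WT libraries lay within a narrow band and all KO libraries lay above it. The mean share was 67.4% ± 0.647 in WT and 73.3% ± 2.57 in KO, 5.96 percentage points higher (p = 0.0571, exact permutation test, 2-sided). That p is the smallest this 2-sided test allows with these libraries. This share is a ratio within a library and does not depend on the scaling between libraries.

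Reads of *Ednrb* were split by Salmon over 3 protein-coding transcripts that start at 2 places, *Ednrb-201* at a site 740 bases upstream of that shared by *Ednrb-202* and *Ednrb-203*. *Ednrb-202* held most of the reads, with 34.0, 28.1, 29.4 and 30 CPM in WT, against 20.8, 25.1 and 27.1 CPM in KO. *Ednrb-201* was at 8.33, 6.41, 9.52 and 5.26 CPM in WT and 2.87, 3.16 and 4.94 CPM in KO. For both transcripts every KO library was below every WT library, as for 5.12% of all genes. The share over all transcripts was not taken. *Ednrb-203*, which shares its start with *Ednrb-202*, overlapped between the groups (5.75 ± 1.19 CPM in WT, 4.72 ± 0.355 CPM in KO). The split among such similar transcripts is an estimate whose error the files do not give, and no test was made on it.

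The sequence before these starts is shown because the receptor deleted here binds DNA at copies of the half-site AGAACA, read as TGTTCT on the other strand. The 250 bases of GRCm39 before the *Ednrb-201* start, chr14:104081901-104082150 read on the minus strand, held 1 match, in capitals.
Ednrb-201: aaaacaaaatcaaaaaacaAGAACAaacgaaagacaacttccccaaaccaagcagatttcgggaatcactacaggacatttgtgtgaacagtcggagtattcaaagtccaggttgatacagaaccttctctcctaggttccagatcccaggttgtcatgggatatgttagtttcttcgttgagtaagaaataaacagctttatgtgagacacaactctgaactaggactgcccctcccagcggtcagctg
The 250 bases before the *Ednrb-202* start also held 1 match, of which the 30 bases around it, chr14:104081235-104081264 on the minus strand, read as follows.
Ednrb-202: ggcacatacgagTGTTCTttcattgggaca
The matches began at positions -231 and -92 from their starts. The half-site was present on either strand in 13.5% of 19232 promoters of the same length, and in neither of the windows before *Edn1-201* and *Edn2-201*. A match describes the letters only, and binding was not measured in this tissue by these libraries. The hypoxia response core ACGTG (18.4% of promoters) and the AP-1 site TGANTCA (5.33%), searched on both strands, were in none of the 4 windows.

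Converting enzyme transcripts were dominated by *Ece1*, at chr4:137589530-137692542 on the plus strand, whose product is the main enzyme that releases active endothelin from its precursor. It was measured at 392, 408, 413 and 383 CPM in WT, against 338, 334 and 409 CPM in KO. KO replicates 2 and 3 were below all WT libraries, and KO replicate 4 sat among the highest. The log2 fold change was -0.15 (SE 0.0823, 95% interval -0.33 to 0.04, adjusted p = 0.647 by edgeR).

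*Ece2*, at chr16:20448332-20465273 on the plus strand, encodes a related enzyme with an acidic optimum. Its level was 15.1, 10.2, 12.5 and 9.5 CPM in WT, against 10.4, 11.7 and 8.52 CPM in KO. The groups overlapped, with WT replicate 1 highest (log2 fold change -0.21, SE 0.173, 95% interval -0.6 to 0.18, adjusted p = 0.771 by edgeR). Its value is uncertain because a readthrough gene, *Eef1ece2*, covers 16339 bases of it on the same strand, and adding the 0 to 102 reads per library given to *Eef1ece2* moved the log2 fold change to -0.11. Within *Ece2*, transcript *Ece2-203*, which starts 3288 bases downstream of *Ece2-201*, took 24.0%, 21.4%, 20.6% and 20.1% of the gene's reads in WT and 29%, 31.8% and 28.6% in KO. All KO libraries were above all WT libraries in that share, which was not tested, whereas the CPM of *Ece2-203* overlapped between the groups (2.57 ± 0.755 in WT, 3.05 ± 0.643 in KO). *Ece1* supplied 96.7% ± 0.526 of the converting enzyme TPM in WT and 96.6% ± 1.13 in KO (difference -0.0751 percentage points, p = 0.914, exact permutation test, 2-sided).

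Set side by side per length in WT, *Ece1* was highest at 227 ± 5.97 TPM (SD, n = 4), followed by *Ednra* at 36.8 ± 2.51 TPM, *Ednrb* at 17.8 ± 1.22 TPM, *Ece2* at 7.77 ± 1.11 TPM, *Edn1* at 6.35 ± 1.0 TPM, *Edn2* at 4.8 ± 2.0 TPM and *Edn3* at 4.7 ± 1.48 TPM. The libraries of neighbours did not overlap from *Ece1* down to *Ece2*, while *Ece2* and *Edn1*, *Edn1* and *Edn2*, and *Edn2* and *Edn3* overlapped in their ranges. Within single libraries *Ece2* was above *Edn1* in 4 of 4 WT and 0 of 3 KO libraries, *Edn1* was above *Edn2* in 3 of 4 WT and 3 of 3 KO libraries, and *Edn2* was above *Edn3* in 3 of 4 WT and 0 of 3 KO libraries. In KO the means ran from *Ece1* at 206 ± 51.7 TPM (SD, n = 3) through *Ednra* at 38.2 ± 1.98, *Ednrb* at 14 ± 2.49, *Edn1* at 8.86 ± 1.25, *Ece2* at 6.82 ± 0.971 and *Edn3* at 4.0 ± 0.572 to *Edn2* at 2.48 ± 0.629 TPM. The KO range of *Edn1* lay wholly above that of *Edn2*. Much of the *Ece1* TPM came from *Ece1-203*, a transcript of 172 bases with 0.4% to 0.6% of the gene's reads. Without it *Ece1* was at 131 ± 8.87 TPM in WT and 122 ± 20.9 TPM in KO, still the highest of the 7.

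Genes whose profile over the 7 libraries was most like that of *Edn2* were sought by the root mean square difference of centred log2 CPM, which over all tested genes had a median of 0.7. The nearest were the lncRNA genes *Gm50323* (0.22), *Gm14703* (0.25), *Gm15743* (0.26) and *Lrp8os3* (0.26), all at 3 to 44 reads per library, and *Inpp5j* (0.28), a phosphoinositide 5-phosphatase. *Inpp5j* was at 1.38, 3.06, 2.86 and 2.33 CPM in WT, against 1.34, 1.27 and 1.55 CPM in KO. As for *Edn2*, WT replicate 1 was level with the KO libraries and the other 3 WT libraries were higher, which follows from the choice by likeness. When WT replicate 1 was left out, 1 of these 5 genes was again among the nearest 5, so the list rests largely on that library.

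The wider pathway was described with 6 lists of genes, none of which held an edgeR DEG. In these lists counts are at an unadjusted p under 0.05, to be read beside the 5.1% of all genes that were lower in KO and the 3.84% that were higher at that level. Of 24 receptor signalling genes, 4 were lower and 0 higher, with a median log2 fold change of -0.05 against 0.00 over all genes. *Mylk*, the kinase of myosin light chain that sets smooth muscle contraction, was at 377 ± 37.6 CPM in WT and 273 ± 48.0 CPM in KO, every KO library being below every WT library (log2 fold change -0.47, SE 0.126, adjusted p = 0.319 by edgeR). Among 8 receptor desensitisation genes 1 was lower, *Arrb1*, which encodes a beta-arrestin (53.7 ± 3.16 CPM in WT, 46.0 ± 4.34 in KO, with overlap). *Rgs4*, a G protein regulator, was at 14 ± 1.35 and 15.8 ± 1.54 CPM and was not counted.

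Of 9 genes listed for peptide processing and breakdown, 8 were tested and 1 was counted as lower, *Mmel1*, which encodes a neprilysin-like peptidase. Its level was 7.24, 5.39, 4.79 and 22.2 CPM in WT, against 1.91, 2.5 and 3.07 CPM in KO. The groups did not overlap, and WT replicate 4 was far above the rest (log2 fold change -1.99, SE 0.551, adjusted p = 0.327 by edgeR). *Cma1*, a mast cell chymase, was below 1 CPM in every library, with means of 0.782 ± 0.151 in WT and 0.573 ± 0.0333 in KO.

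Nitric oxide and prostacyclin give relaxing signals that oppose endothelin. Of the 7 genes listed for these signals and their control, 6 had a negative log2 fold change and 1 was counted. It was *Prkg1*, the kinase activated by cyclic GMP, at 9.58 ± 1.33 CPM in WT and 7.26 ± 1.55 CPM in KO without overlap. *Gucy1a1*, a subunit of the nitric oxide receptor, was at 110 ± 5.31 and 95.9 ± 12.6 CPM, with overlap. The 11 known regulators of endothelin genes held 3 counted as lower and 3 as higher. Those counted as higher were *Jun*, *Fos* and *Klf2*, at log2 fold changes of 0.44, 0.41 and 0.29 by edgeR. *Epas1*, which encodes the hypoxia-inducible factor HIF-2 alpha, was at 262 ± 14.7 CPM in WT and 212 ± 21.6 CPM in KO (log2 fold change -0.30, SE 0.0817, adjusted p = 0.318 by edgeR). *Pparg*, a nuclear receptor that has been placed downstream of the progesterone receptor in ovulation, was at 23.9, 35.4, 27.0 and 37.8 CPM in WT and 18.2, 19.7 and 23.6 CPM in KO. All KO libraries were below all WT libraries (log2 fold change -0.60, SE 0.166, adjusted p = 0.33 by edgeR; a DEG by DESeq2, adjusted p = 0.0385).

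Among 12 genes of other vasoconstrictor systems, 11 were tested and 1 was counted as lower. *Adra1d*, an alpha-1 adrenergic receptor, was at 4.96, 6.64, 5.3 and 10.8 CPM in WT and 2.99, 2.56 and 3.86 CPM in KO. The groups did not overlap, with WT replicate 4 highest, and it was the DEG of the list by DESeq2 (log2 fold change -1.14, adjusted p = 0.00413; 0.298 by edgeR). *Oxtr*, the oxytocin receptor, was at 104 ± 42.8 CPM in WT and 72.8 ± 3.69 CPM in KO, WT replicate 4 again being far above the rest at 167 CPM.

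Smooth muscle markers were lower in KO, as was *Ednrb*. All 9 listed markers had a negative log2 fold change, 8 at an unadjusted p under 0.05 (5.1% of all genes were lower at that level), with a median of -0.41, and 2 were DEGs by DESeq2 and 0 by edgeR. *Des*, the intermediate filament protein desmin, was at 64.9 ± 11 CPM in WT and 37.7 ± 6.3 CPM in KO, and *Cnn1*, the actin-binding calponin, was at 75.3 ± 10.2 and 46.5 ± 9.7 CPM. The summed marker level was 1719 to 2057 TPM in WT and 1232 to 1657 TPM in KO, so the groups did not overlap. KO replicate 2 was lowest both in this sum and in *Ednrb*, but the other libraries did not keep the same order. KO replicate 3 was above KO replicate 4 in the sum (1657 and 1613 TPM) and below it in *Ednrb* (32.9 and 37.1 CPM). The lowest WT library was replicate 2 in the sum and replicate 4 in *Ednrb*. *Ednra*, whose product is the receptor of contractile cells, was at a log2 fold change of 0.01. A lower median was not particular to smooth muscle. It was -0.4 over the surface epithelium list and -0.31 over the theca list, against 0.28 over the oocyte list and 0.2 over the red blood cell list. None of the 9 smooth muscle markers was near 0 in these libraries, and their part in the *Ednrb* result was not tested.

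**Figure D4:**
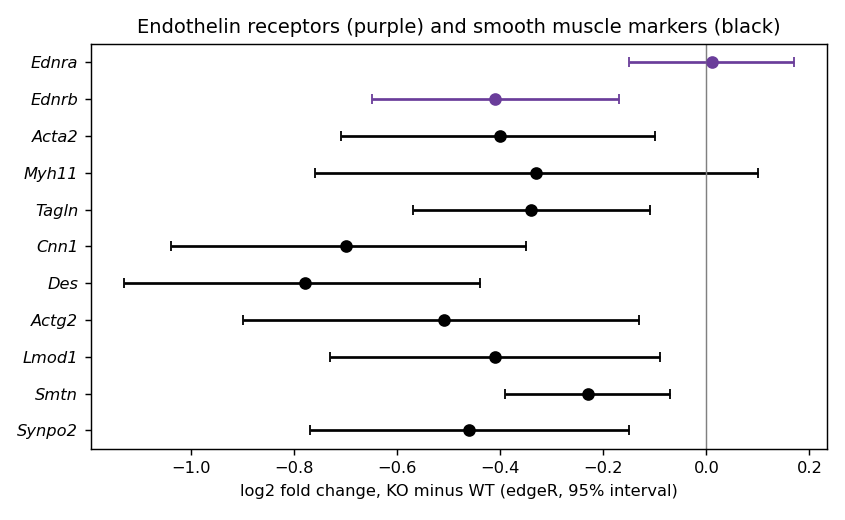
Log2 fold change of KO minus WT (edgeR, 95% intervals) for the 2 endothelin receptors in purple and the 9 smooth muscle markers in black. *Ednrb* (-0.41) lies at the median of the markers (-0.41), whereas *Ednra* (0.01) lies at 0. The surface epithelium markers, not drawn, had a median of -0.4.

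The markers of other cell types overlapped in their sums, and their counts at an unadjusted p under 0.05 are again to be read beside 5.1% of all genes lower and 3.84% higher. Over 8 endothelial markers, from cells that express *Edn1* and *Ednrb*, 7 had a negative log2 fold change and 2 were counted as lower, *Cdh5* and *Tek*, while the summed level overlapped (548 to 647 TPM in WT, 571 to 623 TPM in KO). The 5 pericyte markers summed to 156 to 167 TPM in WT and 145 to 174 TPM in KO, with 1 counted as lower. None of 10 granulosa markers was counted in either direction, and of the 10 ovulatory granulosa and cumulus markers 1 was counted as lower and 2 as higher (sums of 428 to 521 TPM in WT and 386 to 530 TPM in KO). Of 7 surface epithelium markers 2 were counted as lower (29.6 to 54.5 TPM in WT, 30.5 to 45.0 TPM in KO). All 6 theca markers had a negative log2 fold change with none counted, and their sums overlapped (5103 to 6389 TPM in WT, 4485 to 5580 TPM in KO). The sums overlapped for the leukocyte, oviduct and red blood cell lists, with none counted, and for the 6 oocyte markers, of which 2 were counted as higher. No marker of any list was under 0.1 TPM in every library, and the part of these cell types in the ligand and receptor values was not tested.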

How the data were processed

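RNA from GC-depleted ovaries was sequenced by the authors as stranded, paired-end 100 bp mRNA libraries. The deposited files held, for each library, Salmon expected counts and TPM for 139225 transcripts, with effective lengths, made by the authors on GRCm39 per the labels. The Salmon version and strand setting are not given in the sources used here. Transcripts were matched to GENCODE (GRCm39), 137570 of them (98.81%), and summed per gene. The 0.6% to 0.63% of reads on unmatched transcripts were left out. Summed counts were rounded and tested in edgeR 4.0.16 (R 4.3.3; TMM, filterByExpr, quasi-likelihood, Benjamini-Hochberg over all genes), with 4 WT against 3 KO libraries and no covariate. The test was checked on simulated data. DESeq2 1.42.0 and other filters, scalings and left-out libraries were alternatives.

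Named genes were the 7 members, *Pgr*, the 5 genes most like *Edn2* and the 2 genes of smallest p in each of 6 pathway lists, of which 1 gene is not reported here. *Des*, *Cnn1*, *Cdh5*, *Tek*, *Jun*, *Fos*, *Klf2*, *4933431K23Rik*, *Eef1ece2* and the 10 granulosa markers fall outside that rule and were named after their values were seen. The members and lists were chosen with earlier results of these data known. Replicates are pools of 3 mice. Promoters were the 250 bases before the first base of a transcript, and the share of promoters with a motif was taken over the most read transcript of each tested gene.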

Additional observations from a re-analysis of the deposited data

Results flagged for a closer look

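*Edn2* in WT replicate 1, already known as the low library for this gene when the members were chosen, stood far from the other WT libraries. Its level was 1.71 CPM, and the gap to the nearest WT library was 0.879 of the whole WT range, above Dixon's critical value of 0.829 for 4 samples. The value therefore describes that library and is no independent test. The measure was applied to 10 quantities in the WT group, where chance alone marks about 1 in 20 groups. In KO, with 3 libraries, it was not applied.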

How the results depend on the processing

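Each log2 fold change was refitted under 16 alternatives, and those of *Edn1*, *Edn2*, *Edn3*, *Ednrb*, *Ece1* and *Ece2* kept their direction under all of them. *Ednra* turned negative without WT replicate 2 (-0.03) or 4 (-0.02). The threshold for a DEG was passed by 2 members in DESeq2 with length offsets and replicate block (*Edn1* 0.52, adjusted p = 0.0497; *Edn2* -1.26, adjusted p = 0.000783; 198 DEGs, 1.27% of genes) and by 1 in DESeq2 without WT replicate 1 (*Edn2* -1.22; 206 DEGs), an alternative chosen after seeing the data. All other settings called 0 members. KO has no replicate 1, so a replicate block gives WT replicate 1 no weight in the KO minus WT difference. Each call of a member thus came from a fit in which that library did not count toward the difference. DEGs over all genes numbered 141 with DESeq2, 36 without a filter on low counts, 6 with at least 10 counts in every library, 7 with protein-coding transcripts only and 26 with the replicate block in edgeR, where *Edn2* was at -1.25 and *Edn1* at 0.52 without passing. The correlations of deviations between same-numbered libraries were -0.01, 0.11 and 0.08 for replicates 2, 3 and 4, not all over 0.1, so the number was not taken as a pairing. WT replicates 3 and 4 correlated best with their own number and WT replicate 2 with KO replicate 4. Leaving out each replicate gave 1 to 4 DEGs, log2 fold changes of 0.32 to 0.58 (*Edn1*), -1.21 to -0.78 (*Edn2*), -0.44 to -0.08 (*Edn3*), -0.03 to 0.05 (*Ednra*), -0.51 to -0.31 (*Ednrb*), -0.25 to -0.09 (*Ece1*) and -0.32 to -0.06 (*Ece2*), and differences in share of -20.1 to -10.8 points (*Edn2*), 4.59 to 7.15 (*Ednra*) and -0.697 to 0.404 (*Ece1*). The *Ece1* share also turned positive as a share of reads (0.0729) and without transcripts under 300 bases (0.186), the latter added after seeing the data. With protein-coding transcripts only, 5 of the 7 members kept their rank and *Ece2* was at 5.01 TPM in WT. The cause of these changes was not tested. With 3 KO libraries and 73 to 290 reads, *Edn2* is the least precisely counted member.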
